A study of Mus musculus with 8 samples.

Results

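The genes described here code for the collagens, the laminins and a set of other secreted matrix proteins, 62 of the 23091 genes counted. They were chosen by symbol, with earlier results of these data known. The set holds every collagen chain gene (39), every laminin chain gene (10) and 13 further genes. The 13 are Nid1, Nid2, Hspg2, Sparc, Fn1, Vcan, Lum, Dcn, Timp1, Timp2, Timp3, Fbn1 and Eln. The samples were 8 single-cell libraries of extraembryonic yolk sac, from C57BL/6N wild-type embryos at E9.5, with no treatment and all from batch A. Of these, 4 libraries were labelled A1 and A2 cells, here A1/A2, and 4 were labelled EMP cells, which stands for erythromyeloid progenitors. Per the labels, cells were stained for CD45 and CD11b and CD45+ cells were sorted into 384-well plates, and nothing in the labels says whether the libraries of a group come from separate litters or embryos, so the p-values below measure the spread between these libraries, which may be technical. Of 1536 wells in all, the 1223 with at least 1000 transcripts were kept, 568 from A1/A2 and 655 from EMP libraries.

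The extracellular matrix around an epithelium or a vessel includes a basement membrane, a sheet woven from type IV collagen and trimeric laminins that are bridged by nidogens and the proteoglycan perlecan. Connective tissue cells instead lay down cable-like fibrils of collagens I, III and V, coated with small proteoglycans such as lumican and decorin. In the mouse yolk sac the visceral endoderm rests on one such basement membrane, with mesoderm, vessels and blood islands beneath it, and the neighbouring parietal endoderm secretes a much thicker sheet, Reichert's membrane, that is rich in the laminin made of the Lama1, Lamb1 and Lamc1 chains. Blood cells and macrophages travel through these matrices and are not known as their main makers.

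Type IV collagen illustrates how the genes lie in the genome. Col4a1 and Col4a2, which code for the 2 chains of the common type IV collagen trimer, start 21 bases apart on opposite strands of chromosome 8, so that their transcripts overlap head to head. The stretch from one start to the other in the RefSeq promoter table (build GRCm38.p6, chr8:11312805-11312826, Col4a2 strand) is printed because it belongs to the first exons of both genes, with the GC-box letters GGGCGG in capitals. Beside it stand the 250 bases before the start of Col1a2 (chr6:4505368-4505617, plus strand), a fibrillar collagen gene, with the letters CCAAT in capitals. Those before Nid1 (chr13:13437352-13437601, plus strand), a basement membrane gene, follow with GGGCGG in capitals. They are shown as examples of the fibrillar and the basement membrane genes.
Col4a1-Col4a2: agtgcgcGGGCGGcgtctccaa
Col1a2: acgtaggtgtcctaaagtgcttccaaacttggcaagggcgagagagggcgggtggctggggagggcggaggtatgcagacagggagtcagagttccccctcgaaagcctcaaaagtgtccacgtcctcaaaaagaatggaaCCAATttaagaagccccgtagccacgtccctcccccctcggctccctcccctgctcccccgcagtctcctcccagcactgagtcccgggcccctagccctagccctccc
Nid1: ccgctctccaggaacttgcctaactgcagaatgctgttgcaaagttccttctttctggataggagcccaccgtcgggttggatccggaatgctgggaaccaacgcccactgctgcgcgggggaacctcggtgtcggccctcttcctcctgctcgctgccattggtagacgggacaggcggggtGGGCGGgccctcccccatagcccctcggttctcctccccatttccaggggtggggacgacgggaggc
The table held an entry for 43 of the 62 genes, each a window of 300 bases from 250 before to 50 after the start, and 4 genes had more than 1 entry, of which the first was used. Counting both strands, GGGCGG was found in 31 of the 43 windows (72.1%), against 46.3% of the windows of 17492 protein-coding genes. CCAAT was found in 16 (37.2% against 39.0%) and TATAAA in 4 (9.3% against 13.3%). These are matches of letters and say nothing about binding. In all, 19 of the genes lie next to another gene of the set among protein-coding genes, in 10 pairs that include Col4a1 with Col4a2, Col3a1 with Col5a2, and Lum with Dcn.

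All 62 genes had at least 1 transcript somewhere, but 26 had fewer than 30 in all kept wells and 12 had at least 1000. The method tags each transcript once near its 3′ end, so levels are given per 1000000 counted transcripts (CPM) and are not scaled by gene length. Sparc, a small collagen-binding protein, was counted most often, with 19554 transcripts and at least 1 in 82.17% of kept wells. Col4a1 (8942 transcripts, 63.21% of wells) and Fn1, the gene of fibronectin (8806 transcripts, 65.82%), came next, followed by Col4a2 with 4609. The fibrillar genes were counted in few wells: Col1a1 gave 3748 transcripts from 23.79% of wells and Col3a1 gave 1499 from 15.21%. The gene of elastin, Eln, and Timp1, an inhibitor of matrix proteases, stayed at or below 0.94 CPM in every library, with 8 and 15 transcripts.

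Depth and the source of the RNA touch all results. The kept wells of a library held 2558197 to 5418136 transcripts, with median totals per well between 3763 and 21921. Of the kept wells, 443 of 1223 (281 in A1/A2 and 162 in EMP libraries) held less than 10% of the transcripts of the deepest well with the same number in another library, and each comparison was repeated without them. Against the label of a CD45+ sort, the yolk sac endoderm list (12 genes such as Afp, Ttr and Apob) summed to between 7832 and 13636 CPM in A1/A2 and between 13529 and 19976 CPM in EMP libraries. The macrophage list (13 genes, among them Ptprc, which codes for CD45) summed to between 1068 and 1561 CPM in A1/A2 and between 115 and 183 CPM in EMP libraries. In sums over wells, fewer cells of a type and less RNA per cell cannot be told apart.

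Summed over the 62 genes, matrix transcripts made up less of the A1/A2 libraries than of the EMP libraries, except in one library that a single well lifted. The summed level was 1343, 2481, 1040 and 1135 CPM in A1/A2 libraries 1 to 4 and 2860, 2271, 2290 and 1878 CPM in EMP libraries 1 to 4. The means were 1500 ± 666 and 2325 ± 404 CPM (SD, n = 4 each). The 2 groups overlap only through A1/A2 library 2, whose value without its highest well brought the A1/A2 mean to 1293 ± 272 CPM. The collagens summed to 524 ± 273 against 889 ± 339 CPM and the fibrillar collagens to 157 ± 117 against 349 ± 350 CPM, both with wide spread. The laminins did not differ beyond theirs, at 235 ± 148 against 243 ± 55.1 CPM. No test was run on these sums, because the genes were chosen with earlier results known.

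**Figure D1:**
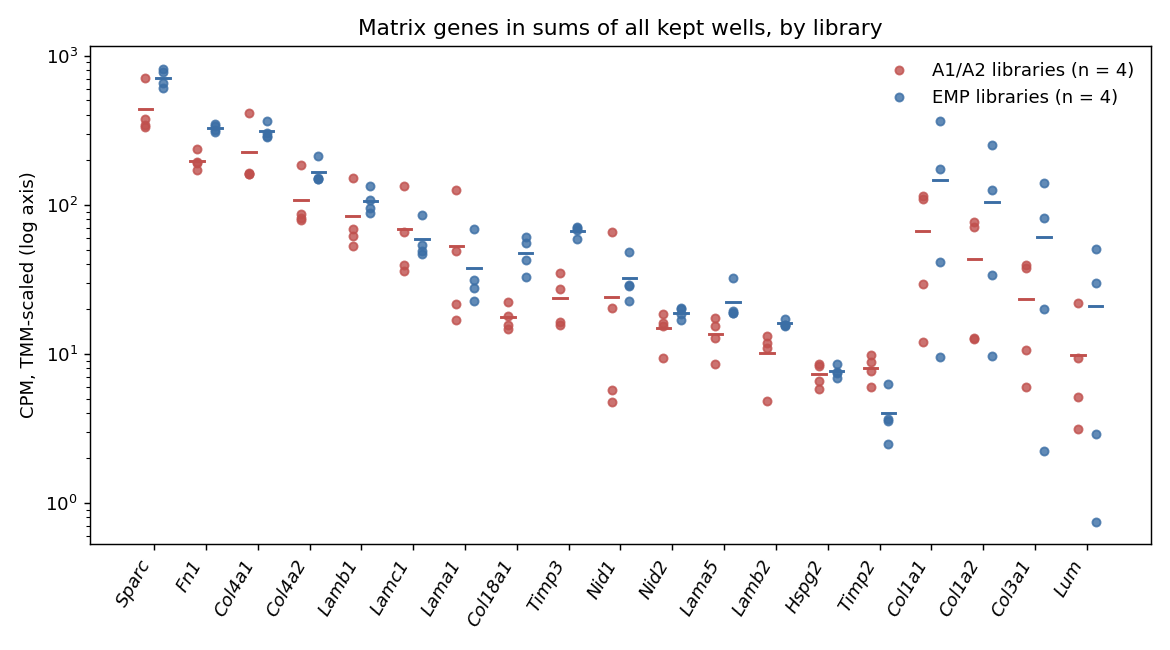
Level of 19 collagen, laminin and matrix genes in each of the 8 libraries, in CPM (log axis), with A1/A2 and EMP libraries in separate colours and one point per library. Col18a1, Fn1 and Timp3 have no overlap between the groups, while Col4a1, Lamb1 and Sparc of A1/A2 library 2 sit apart from the other A1/A2 libraries and Col1a1 spans 9.47 to 365 CPM within the EMP libraries.

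Comparing the A1/A2 with the EMP libraries over all kept wells asks how the 2 sorts differ as they stand. Of 25 genes of the set that could be tested, 7 were lower and 1 was higher in A1/A2 at an adjusted p under 0.05 (edgeR's quasi-likelihood test with Benjamini-Hochberg adjustment over all genes tested). Over all 11144 genes tested, 32.8% passed, 15.4% lower and 17.3% higher, so the share is close to that of genes in general, and the median log2 difference was -0.69 against -0.02 over all genes. In these libraries all 13 macrophage markers were higher in A1/A2, 10 of 12 endothelial and 7 of 12 yolk sac endoderm markers were lower, and their part in the differences below was not tested.

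Col18a1, Timp3 and Fn1 had the smallest adjusted p of the set. Col18a1 codes for a basement membrane collagen of vessels and epithelia from which the fragment endostatin is cut. It stood at 22.3, 15.7, 14.6 and 17.9 CPM in the 4 A1/A2 libraries and at 55.2, 32.7, 42.6 and 60.6 CPM in the EMP libraries. No library overlapped, and the log2 difference was -1.44 (SE 0.21, adjusted p = 0.0004272). Timp3, an inhibitor of proteases that is bound to the matrix, read 15.6, 27.3, 16.4 and 34.6 against 70.9, 69.8, 67.6 and 59.1 CPM. Its groups were likewise apart, with a log2 difference of -1.48 (SE 0.21, adjusted p = 0.0004785). Fn1 read 170, 238, 193 and 190 against 308, 339, 315 and 349 CPM. Here too every EMP library lay above every A1/A2 library, with a log2 difference of -0.73 (SE 0.11, adjusted p = 0.0004378). These 3 calls held when each of the 8 libraries was left out in turn. All 3 were lost where wells of high depth were left out, with adjusted p of 0.07823 for Col18a1, 0.0695 for Timp3 and 0.1051 for Fn1. There, 3 other genes passed, all lower in A1/A2: Col4a1 (log2 difference -0.73, adjusted p = 0.00732), Col4a2 (-0.86, adjusted p = 0.006758) and Nid1 (-1.30, adjusted p = 0.01374). With every well thinned to 1000 transcripts, 7 genes could be tested and 2 passed, and Timp3 did not (adjusted p = 0.2195).

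The other 5 calls rested on particular libraries, and most of them also on depth. Where wells of high depth were left out, Lama5 (adjusted p = 0.5547), Lamb2 (0.8949), Timp2 (0.2523) and Sparc (0.06503) lost their calls. Of the 8 calls over all kept wells, 0 were kept in every alternative. Sparc read 342, 710, 332 and 377 CPM in A1/A2 and 774, 818, 655 and 603 CPM in EMP libraries, so that A1/A2 library 2 lay within the EMP range, and its log2 difference was -0.69 (SE 0.24, adjusted p = 0.04681). The call was lost without A1/A2 library 1, 3 or 4 or EMP library 1, 2 or 3, with adjusted p up to 0.1844. Lama5, the laminin chain of mature epithelial basement membranes (log2 difference -0.71, SE 0.24, adjusted p = 0.03699), and Lamb2 (-0.67, SE 0.24, adjusted p = 0.04933) had no overlap between groups. Lama5 lost its call without A1/A2 library 1, 3 or 4 or EMP library 2 (adjusted p up to 0.09799). Lamb2 lost it without A1/A2 library 1 or 4 or any EMP library (adjusted p up to 0.0941). Lama4, the chain of vascular basement membranes, had few transcripts (11 in A1/A2 and 74 in EMP libraries), a log2 difference of -2.07 (SE 0.73, adjusted p = 0.04942) and no call without A1/A2 library 2, 3 or 4 (adjusted p up to 0.1353). The gene that rose was Timp2, an inhibitor and cofactor of the protease Mmp2, at 9.77, 8.82, 7.67 and 5.96 against 6.27, 3.67, 3.55 and 2.49 CPM (log2 difference 0.99, SE 0.30, adjusted p = 0.02416). One library of each group overlapped, and the call was lost without A1/A2 library 1 or EMP library 3 or 4 (adjusted p up to 0.06669).

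The chains of type IV collagen and of the Lama1 laminin did not pass over all kept wells. Col4a1 read 161, 412, 160 and 164 against 302, 366, 288 and 284 CPM, and Col4a2 read 80.9, 183, 78.5 and 86.6 against 150, 214, 150 and 148 CPM. In both genes 3 A1/A2 libraries lay below all EMP libraries and library 2 did not, with log2 differences of -0.46 (SE 0.32, adjusted p = 0.2899) and -0.61 (SE 0.28, adjusted p = 0.1231). Lama1 spanned 16.8 to 125 CPM in A1/A2 and 22.7 to 68.4 CPM in EMP libraries. Its log2 difference of 0.51 (SE 0.70, adjusted p = 0.6127) turned to -0.40 without A1/A2 library 2. Lamc1 (log2 difference 0.24, SE 0.44, adjusted p = 0.705) turned to -0.33 without the same library. Lamb1 (-0.33, SE 0.32, adjusted p = 0.4622) and Nid1 (-0.37, SE 0.76, adjusted p = 0.7407) kept their sign. Fibrillar genes varied widely within both groups: Col1a1 read 109, 115, 29.6 and 11.9 CPM in A1/A2 and 365, 41.5, 174 and 9.47 CPM in EMP libraries. Neither Col1a1 nor Col1a2 nor Col3a1 passed the test, at log2 differences of -1.16 (SE 1.16), -1.28 (SE 1.09) and -1.39 (SE 1.12) with adjusted p of 0.4833, 0.4078 and 0.3854.

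The genes that sense, fold and cut matrix proteins moved in both directions in this comparison. Among 17 tested matrix receptors 3 were higher and 5 lower in A1/A2, among them Cd44, the hyaluronan receptor (201 ± 22.3 against 77.2 ± 27.0 CPM, log2 difference 1.38, adjusted p = 0.002093). Itga2b, the platelet integrin chain, was lower (11.96 ± 3.81 against 33.5 ± 9.01 CPM, log2 difference -1.47, adjusted p = 0.001421). Of 20 tested collagen processing genes 3 were higher and 4 lower, and of 9 proteases 1 was higher (Adam15, log2 difference 1.45, adjusted p = 0.0002114) and 2 were lower. One of these was Mmp2, a gelatinase that cleaves type IV collagen, at 3.26 ± 1.83 against 12.2 ± 4.03 CPM (log2 difference -1.88, adjusted p = 0.003234).

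A few wells held much of the matrix RNA. The median well had 12.9 transcripts of the 62 genes per 10000, with a 90th percentile of 31.1. Well 19 of A1/A2 library 2 had 652 per 10000 out of 46210 transcripts. It held 68.6 Lama1, 55.4 Lamb1, 60.2 Lamc1, 156 Col4a1, 67.2 Col4a2, 41.4 Nid1 and 196 Sparc transcripts per 10000, the chains of a basement membrane together. Of the parietal endoderm markers listed, Pth1r stood at 17.04 and Srgn at 23.5 per 10000 in this well and Thbd, Sox7, Plat and Stra6 at 1.08 to 2.60, with Snai1 at 0.87 and Sox17 and Nostrin at 0.22, while Cdh5, Csf1r and Col1a1 were at 0. This well alone held 70.1% of the library's Lama1, 80.3% of its Nid1, 57.4% of its Lamc1, 48.2% of its Col4a1, 46.5% of its Lamb1 and 35.1% of its Sparc transcripts, though only 1.3% of all its transcripts. Well 116 of A1/A2 library 1 (125 per 10000, 65.5% of the library's Lama1) and well 141 of EMP library 2 (207 per 10000, 22.2% of the library's Lama1) were high for the same chains, with Apoa1 at 14.9 and 36.1 per 10000.

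The fibrillar collagens had wells of their own. Well 173 of EMP library 1 had 571 transcripts of the set per 10000, of which 230 were Col1a1, 117 Col1a2 and 45.3 Col3a1, with Lama1 at 1.17. It supplied 22.6% of the library's Col1a1. Well 68 of A1/A2 library 2 had 60.5 Col1a1 per 10000 and supplied 80.6% of the Col1a1 of its library. It also held Csf1r at 2.70 per 10000, above the 1.026 at which a well is counted as high for Csf1r below. In each well, Lama1, Lamb1, Lamc1, Col4a1, Col4a2 and Nid1 were summed as basement membrane genes, and Col1a1, Col1a2 and Col3a1 as fibrillar collagens. Wells with at least 100 transcripts per 10000 numbered 1 in each group for the first sum, and 1 in A1/A2 and 3 in EMP libraries for the second. At least 1 transcript of these basement membrane genes was counted in 71.8% of A1/A2 and 88.5% of EMP wells, and of these fibrillar collagens in 35.4% and 46.6%, at unequal depths.

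**Figure D2:**
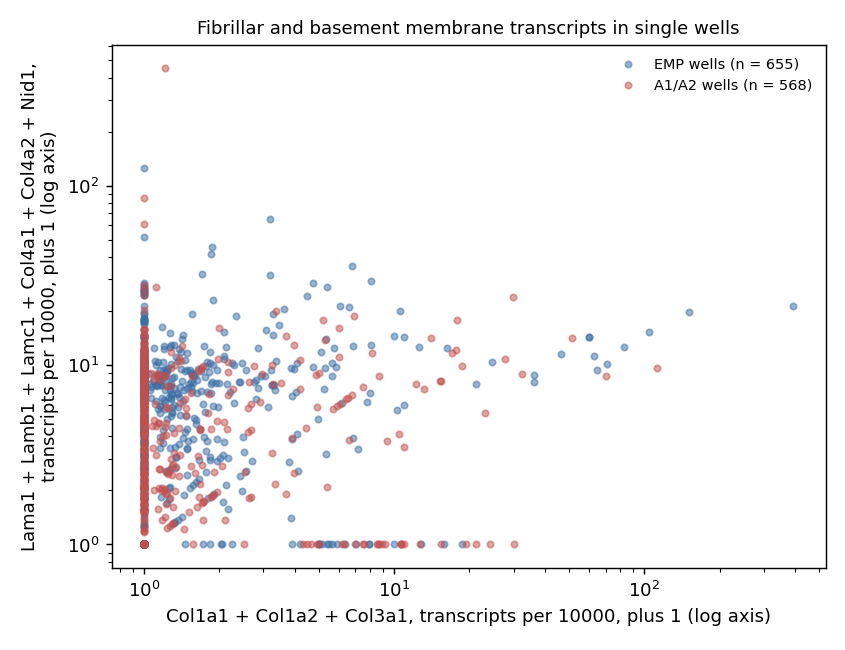
Summed fibrillar collagens Col1a1, Col1a2 and Col3a1 (x axis) against summed basement membrane genes Lama1, Lamb1, Lamc1, Col4a1, Col4a2 and Nid1 (y axis) in each of the 1223 kept wells. Values are in transcripts per 10000 plus 1 on log axes, coloured by A1/A2 and EMP. The well with the highest basement membrane sum (449 per 10000) has almost no fibrillar collagen, and the well with the highest fibrillar sum (392 per 10000) has a basement membrane sum of 20.4, above the EMP 90th percentile of 12.7.

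To ask which cells carried these transcripts, wells were grouped by 4 genes: Apoa1, an apolipoprotein made by visceral endoderm, Cdh5, the cadherin of endothelium, Csf1r, the receptor that macrophages need, and Col1a1. A well counted as high for a gene at 10% of the gene's 99th percentile or more, with at least 2 transcripts. The thresholds per 10000 transcripts were 6.322 for Apoa1, 0.343 for Cdh5, 1.026 for Csf1r and 1.965 for Col1a1. Depth differed between classes: in the A1/A2 libraries the median total per well was 2742 to 4331 in wells high for Apoa1 alone. In those high for Csf1r alone it was 31633 to 49753. These classes are ranges on a scale and are called by their gene. High for 1 gene alone were 639 Apoa1, 33 Cdh5, 127 Csf1r and 8 Col1a1 wells, and sums per library were made where a library had at least 3. The Cdh5 sums came from EMP libraries 1, 3 and 4 (11, 11 and 9 wells), since no A1/A2 well was high for Cdh5 alone, and the Csf1r sums from the 4 A1/A2 libraries and EMP library 3, which had 4 such wells. Ptprc had a median of 140 CPM over the Csf1r sums, 12.5 over the Apoa1 sums and 11.8 over the Cdh5 sums. The class genes were left out of the tests, and each test had a term for the library.

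Cdh5-high wells had more Col18a1 and Nid1 than Apoa1-high wells, and less Lamb1, Nid2 and Lama5, while type IV collagen did not pass. Of 27 tested genes, 10 were higher and 4 lower (adjusted p under 0.05), against 31.1% of all 11261 genes tested, 12.3% higher and 18.8% lower. The median log2 difference was 0.28, against -0.07 over all genes. All 12 endothelial markers were higher and all 12 endoderm markers lower in the same sums, the endoderm list at 1108 to 1287 CPM against 18663 to 22989 CPM in Apoa1-high wells. The progenitor list also was higher in 5 of 6 genes, and its part was not tested. Col13a1, Col14a1, Col15a1, Col5a2, Fbn1, Lama4 and Timp2, all among the higher genes, had too few transcripts for testing in Apoa1-high sums alone. They passed the filter on low counts only with other classes in the fit. The count of higher genes of the set and their median therefore depend on that filter.

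Col18a1 reached 224, 177 and 281 CPM in the Cdh5-high wells of EMP libraries 1, 3 and 4 and 34.0, 26.7 and 39.3 CPM in the Apoa1-high wells of the same libraries, apart in each. The log2 difference was 2.69 (SE 0.20, adjusted p = 6.216e-20). Nid1, the linker of laminin to type IV collagen, read 162, 88.4 and 166 against 19.0, 13.8 and 18.6 CPM (log2 difference 2.90, SE 0.27, adjusted p = 1.708e-15). Its homologue Nid2 went the other way, at 8.83, 4.65 and 9.21 against 23.4, 21.9 and 29.4 CPM (-1.71, SE 0.53, adjusted p = 0.007676). The nidogens went in opposite directions in all 3 libraries, though the Nid2 call was lost with DESeq2 (adjusted p = 0.06444) and with mixed wells assigned (adjusted p = 0.0703).

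The laminin chains divided as well. Lama4 read 14.7, 23.3 and 13.8 CPM against 3.09, 0.64 and 1.65 CPM (log2 difference 3.20, SE 0.86, adjusted p = 0.002184), and its call was lost without EMP library 3 (adjusted p = 0.1044). Lama5 had 1 transcript in the Cdh5-high wells, against 29.6, 27.4 and 29.4 CPM in Apoa1-high wells, a ratio of 0.0514 (95% counting interval 0.0013 to 0.2875, adjusted p = 4.193e-06). The size of this gap depended on leaving out mixed wells. With these assigned, Lama5 had 12 transcripts, at 5.01, 25.1, 19.6 and 7.25 CPM in EMP libraries 1 to 4, against 30.3, 38.5, 26.7 and 29.3 CPM. Over all alternatives the call held, at log2 differences from -8.28 to -1.29. Lamb1 read 79.5, 27.9 and 36.8 against 148, 126.5 and 121 CPM, lower in each library (log2 difference -1.44, SE 0.24, adjusted p = 9.876e-07). Lamc1, the partner of all these chains, did not pass (log2 difference 0.28, SE 0.64, adjusted p = 0.8005) and turned to -0.57 without EMP library 1. Hspg2, which codes for perlecan, was higher at 23.6, 14.0 and 18.4 against 6.19, 4.51 and 6.20 CPM (log2 difference 1.67, SE 0.56, adjusted p = 0.01545), a call lost without EMP library 1 (adjusted p = 0.1544).

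Further collagens were higher in the Cdh5-high wells at low counts. Col14a1, a collagen that sits on fibrils, had 24 transcripts (log2 difference 4.58, SE 0.82, adjusted p = 5.115e-06), and Col15a1, a relative of Col18a1 in vascular basement membranes, had 15 (4.75, SE 0.96, adjusted p = 3.974e-05). Col13a1, a transmembrane collagen (3.44, SE 1.09, adjusted p = 0.01003, and 0.1429 with DESeq2), and Col5a2 (3.31, SE 0.73, adjusted p = 0.0001494) also passed, the latter not without EMP library 3 (adjusted p = 0.08019). Fbn1, the gene of fibrillin-1 (4.18, SE 1.06, adjusted p = 0.001091), and Timp2 (3.52, SE 0.83, adjusted p = 0.0003804) were higher too. Col27a1, a fibrillar collagen, had no transcript in the Cdh5-high wells, which makes it at least 2.15-fold lower than in Apoa1-high wells (floor of 3 counts over the group), and its call was lost without EMP library 1 (adjusted p = 0.07535).

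The most abundant genes of the set did not pass between these classes. Col4a1 read 400, 382 and 585 CPM in Cdh5-high wells against 361, 354 and 351 CPM in the Apoa1-high wells of the same libraries, higher in 3 of 3, and 314 to 579 CPM over all 8 Apoa1-high sums, with a log2 difference of 0.25 (SE 0.17, adjusted p = 0.3029). Col4a2 differed by 0.18 (SE 0.19, adjusted p = 0.526), Sparc by 0.06 (SE 0.18, adjusted p = 0.8455), Fn1 by -0.21 (SE 0.14, adjusted p = 0.2581) and Timp3 by 0.64 (SE 0.30, adjusted p = 0.125) on the log2 scale. Col4a2 was likewise higher in 3 of 3 libraries. With sums of 3 libraries, a missed call does not show equal levels. Among the companion genes, matrix proteases were higher for 4 of 10 and lower for 1, with Mmp2 at 62.9 ± 31.6 against 3.49 ± 2.07 CPM (log2 difference 3.68, adjusted p = 5.719e-09) and its activator Mmp14 at 53.8 ± 21.2 against 7.42 ± 4.46 CPM (2.78, adjusted p = 8.524e-07). Of 17 receptors 7 were higher, with Cd44 at 2.01 on the log2 scale (adjusted p = 1.089e-14), and 6 lower, with the syndecan gene Sdc4 at -4.18 (adjusted p = 7.442e-08). Collagen processing genes were higher for 3 and lower for 6 of 21.

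**Figure D3:**
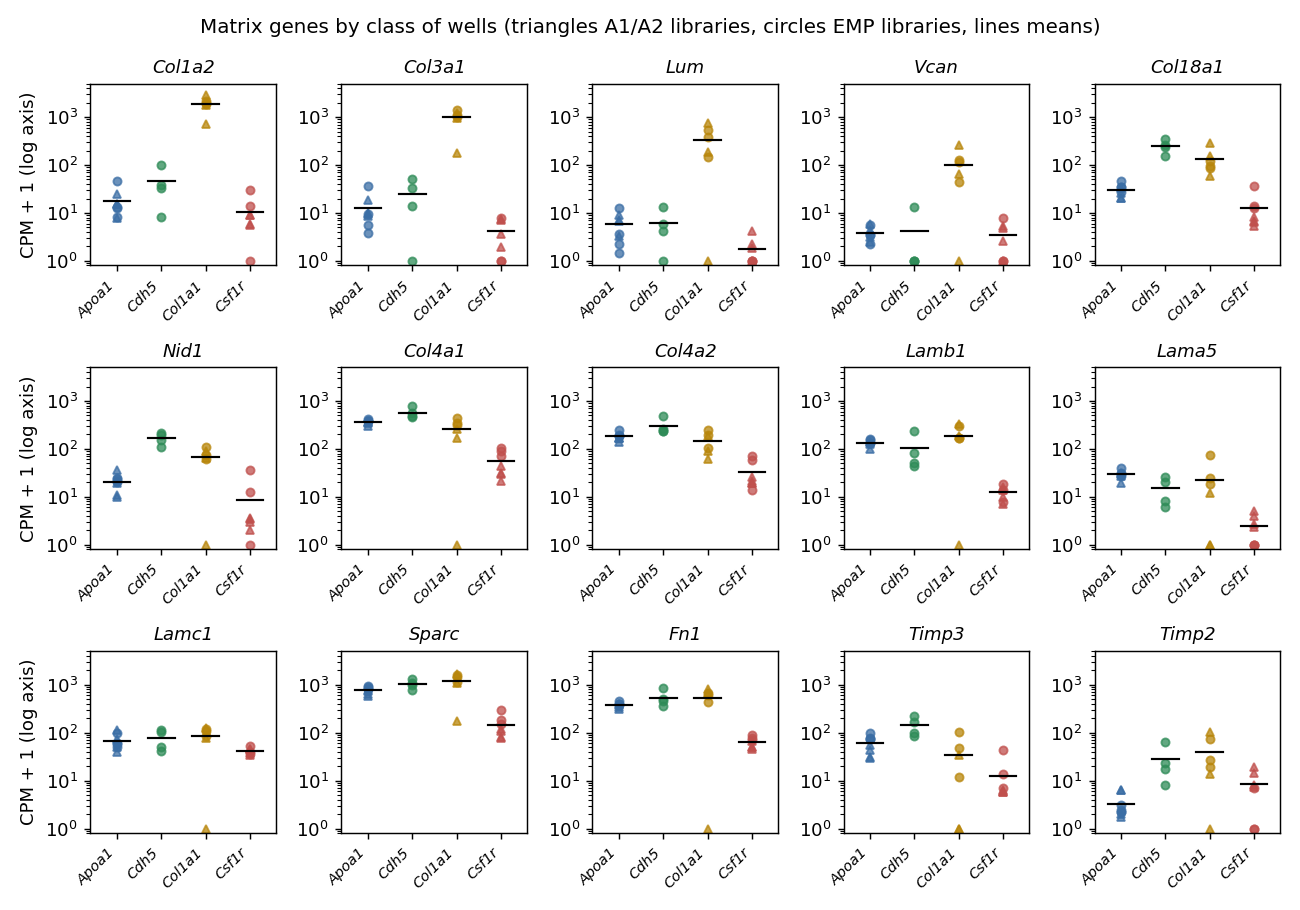
Level of 15 genes in sums of Apoa1-high, Cdh5-high, Csf1r-high and Col1a1-high wells, with wells high for several genes put in the class of the highest relative level, in CPM plus 1 on a log axis. Triangles are A1/A2 and circles EMP libraries, and the line is the class mean. Col1a2 reaches 711 to 2838 CPM in the Col1a1-high sums, and Col18a1 and Nid1 are higher in Cdh5-high than in Apoa1-high sums.

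Csf1r-high wells had less fibronectin, Sparc, type IV collagen and most laminin chains than Apoa1-high wells. Of 27 tested genes, 17 were lower than in Apoa1-high wells and 1 was higher, against 55.4% of all 11261 genes tested, 28.0% lower and 27.4% higher. The median log2 difference was -2.77, against 0.03 over all genes. The sum over the 62 genes was 274 to 580 CPM in Csf1r-high wells and 1708 to 2634 CPM in Apoa1-high wells. All 13 macrophage markers were higher and all 12 endoderm and 8 erythroid markers lower in the same sums. The endoderm list still summed to 633 to 1801 CPM in Csf1r-high wells, against 18663 to 22989 CPM in Apoa1-high wells, and the part of such RNA in the levels below was not tested.

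Fn1 read 40.3, 49.8, 44.5 and 47.8 CPM in the Csf1r-high wells of A1/A2 libraries 1 to 4 and 67.2 CPM in EMP library 3, and between 343 and 437 CPM in the 8 Apoa1-high sums. The classes were far apart (log2 difference -2.98, SE 0.12, adjusted p = 1.329e-36). Sparc read 70.1, 94.4, 70.2, 67.4 and 174 CPM in the same order, against 602 to 944 CPM (-3.19, SE 0.17, adjusted p = 2.195e-10). Col4a1 read 19.3, 31.7, 21.1, 24.9 and 61.6 against 314 to 579 CPM (-3.88, SE 0.17, adjusted p = 6.942e-16), with the single EMP library the highest of the 5 in each of these genes. Col4a2 (-3.44), Lamb1 (-4.09), Lama5 (-4.01), Lama1 (-3.44), Lamb2 (-3.47), Nid1 (-3.35), Nid2 (-2.81), Hspg2 (-2.03), Timp3 (-3.57) and Col18a1 (-1.997) were lower as well on the log2 scale, with adjusted p between 6.433e-31 for Lamb1 and 0.0002718 for Hspg2. Col5a1 (-2.85) and Col27a1 (-3.71) were also lower. Col3a1 (-1.65, SE 0.45, adjusted p = 0.001116) and Col1a2 (-1.28, SE 0.36, adjusted p = 0.001647) were lower by less in value. Without deep wells the calls of Col18a1 (adjusted p = 0.09989), Nid1 (0.05401) and Col1a2 (0.1489) were lost, and after thinning those of Col18a1 (0.9477) and Timp3 (0.2756). Col3a1 lost its call without the library term (adjusted p = 0.0675) and, like Col1a2 (0.119), with mixed wells assigned (0.1174). The Col1a2 call was lost without A1/A2 library 2 (adjusted p = 0.06033), and its difference turned to 0.74 within the EMP libraries, where 7 genes of the set were called.

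Lamc1 and Timp2 stood out from this pattern. Lamc1 read 30.7, 45.5, 44.5, 34.0 and 50.4 CPM in Csf1r-high wells, a level that reaches into the Apoa1-high range of 36.6 to 172 CPM, and its log2 difference of -0.86 (SE 0.43, adjusted p = 0.1429) did not pass. Its partner chains Lama1 and Lamb1 were at 2.34 to 13.7 CPM and 6.14 to 16.8 CPM in the same 5 sums. Timp2 was higher, at 13.1, 6.86, 17.5, 7.20 and 5.60 CPM against a mean of 1.78 ± 2.08 CPM in the Apoa1-high wells of those libraries, in 5 of 5 libraries (log2 difference 2.29, SE 0.61, adjusted p = 0.0008085). Lama4 had no transcript in Csf1r-high wells, at least 1.394-fold below Apoa1-high wells by the floor of 3 counts, and was not called. Of the genes that fold and export collagen, 12 of 21 were lower and 1 higher, among them Serpinh1, the collagen chaperone HSP47 (44.5 ± 15.4 against 271 ± 58.4 CPM, log2 difference -2.51, adjusted p = 5.609e-20). Of 17 receptors 6 were higher, led by Cd44 (305 ± 26.3 against 48.3 ± 16.5 CPM, log2 difference 2.46, adjusted p = 5.075e-29), and 6 lower, led by Dag1, the laminin receptor dystroglycan (-2.19, adjusted p = 3.294e-22). Of 10 proteases 2 were higher and 2 lower.

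**Figure D4:**
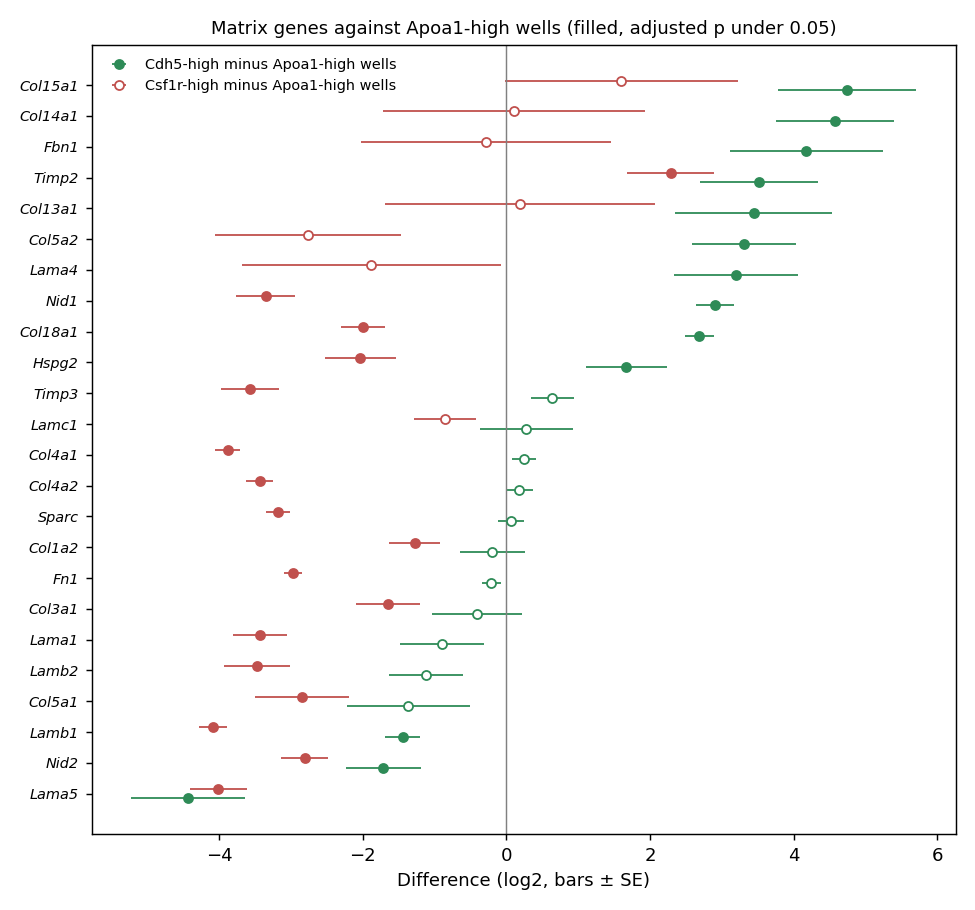
Log2 difference of Cdh5-high and of Csf1r-high wells from Apoa1-high wells (x axis, bars are SE), with filled points at an adjusted p under 0.05 in edgeR's quasi-likelihood test. Shown are the genes of the set called in either comparison, and Lamc1. Col27a1, called in both, is left out. The called Csf1r-high points lie left of 0 except Timp2 (2.29), while Cdh5-high points lie on both sides, with Nid1 at 2.90 and Nid2 at -1.71. Both comparisons share the Apoa1-high sums.

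Wells high for Col1a1 were rare and mixed. Of 46 such wells, 31 were also high for Apoa1 and no other class gene, and 2 for Csf1r and no other. High for no other class gene were 8, too few for a sum in any library. Both comparisons with this class were therefore made with each mixed well put in the class where its level was highest relative to the threshold, which gave 30 Col1a1-high wells in 6 libraries (5, 6 and 3 in A1/A2 libraries 1, 2 and 4 and 9, 3 and 4 in EMP libraries 1, 2 and 3). The sum of A1/A2 library 4 held only 11540 transcripts, so that a gene at 0 there is a weak statement. Of the 30 wells, 10 held less than 10% of the deepest same-number well's transcripts. The mesenchyme list (12 genes) summed to 433 to 2011 CPM in this class against 38.4 to 85.6 CPM in the Apoa1 class, with Prrx1 at 0, and the endoderm list to 1781 to 14488 CPM against 16337 to 22156 CPM. The macrophage list summed to 76.9 to 1891 CPM against 77.0 to 809 CPM.

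The Col1a1-high wells had more of the fibrillar collagens, of the proteoglycans that bind fibrils and of fibrillin-1 than Apoa1-high wells. Of 33 tested genes, 20 were higher than in Apoa1-high wells and none was lower, against 15.4% of all 9378 genes tested, 6.3% higher and 9.09% lower. The median log2 difference was 2.08, against -0.08 over all genes. Wells were chosen by Col1a1, a member, so the calls describe which genes were counted in the same wells. Col26a1, Col6a3, Col9a1, Dcn, Lum and Vcan, all called higher, were not tested in the comparisons above, whose fit had no Col1a1-high sums. The filter on low counts thus let in genes that are high in this class, and the count and the median depend on it. Of the 12 mesenchyme markers, 8 of 10 tested were higher in these sums, and all 12 endoderm markers were lower.

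Col1a2, the partner chain of Col1a1 in type I collagen, read 1816, 2838 and 711 CPM in A1/A2 libraries 1, 2 and 4 and 1926, 1917 and 2123 CPM in EMP libraries 1, 2 and 3, against at most 44.98 CPM in any Apoa1 sum (log2 difference 6.78, SE 0.33, adjusted p = 5.937e-10). Col3a1 read 936, 1231, 178, 1026, 1121 and 1422 CPM in the same order, against at most 34.8 CPM (6.31, SE 0.34, adjusted p = 1.564e-09). Both were higher than in the Apoa1 sum in each library. In A1/A2 library 4, each of the 3 wells held less than 10% of the transcripts of a Col1a1-high well with the same number in another library, and whether they hold RNA of that well was not tested. Without all such shallow wells the log2 differences were 6.48 for Col1a2 and 6.10 for Col3a1. Lum read 189, 765, 0, 383, 147 and 526 CPM (6.09, SE 0.29, adjusted p = 3.01e-16) and Dcn had a log2 difference of 5.96 (SE 0.51, adjusted p = 1.166e-17), so that both fibril-binding proteoglycans, which are neighbours on chromosome 10, were higher. Fibril partners Col5a1 (4.26), Col5a2 (5.81) and Col11a1 (5.75), the fibril-surface collagen Col9a1 (5.27), the microfibril collagen Col6a3 (5.29), Fbn1 (4.71) and the large proteoglycan versican, Vcan (5.11), had adjusted p of 1.955e-08 or smaller. DESeq2 did not call Col6a3 (adjusted p = 0.3438). Col26a1 rested on 14 transcripts against 3 in Apoa1-high wells, an Apoa1 to Col1a1 ratio of 0.0112 (95% counting interval 0.0021 to 0.0401), and was not called by DESeq2 (adjusted p = 0.153).

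Basement membrane genes were less far apart between these classes. Col18a1 (log2 difference 2.08, SE 0.31, adjusted p = 2.15e-05), Nid1 (1.88, SE 0.25, adjusted p = 3.44e-09) and Lama4 (3.32, SE 0.63, adjusted p = 3.623e-05) were higher in the Col1a1 class, as were Timp2 (4.05) and Col27a1 (2.55). Hspg2 (1.45, SE 0.45, adjusted p = 0.01607) lost its call without A1/A2 library 1 or 2 or EMP library 3 (adjusted p up to 0.1206). Fn1 read 657, 829, 0, 606, 442 and 683 CPM (0.74, SE 0.18, adjusted p = 0.003909) and Sparc 1114, 1698, 178, 1615, 1150 and 1433 CPM (0.72, SE 0.18, adjusted p = 0.007876). Both calls were lost without A1/A2 library 2, at adjusted p of 0.0531 and 0.06215. Col4a1 (-0.28, SE 0.18, adjusted p = 0.3731), Col4a2 (-0.05, SE 0.17, adjusted p = 0.9078), Lama1 (0.31, SE 0.26, adjusted p = 0.5035) and Lamb1 (0.52, SE 0.20, adjusted p = 0.0746) did not pass.

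The machinery of collagen making was higher in the same wells, for 12 of 23 tested processing genes, and lower for none. Pcolce, an enhancer of procollagen cleavage, read 37.7 ± 27.7 against 0.28 ± 0.59 CPM (log2 difference 7.20, adjusted p = 3.445e-15), and Lox, the cross-linking oxidase, read 30.6 ± 34.2 against 0.38 ± 0.36 CPM (6.02, adjusted p = 1.643e-11). Of 17 receptors 7 were higher, with Sdc1 at 3.81 on the log2 scale (adjusted p = 3.713e-15) and the fibrillar collagen receptor Ddr2 at 4.93 (adjusted p = 4.751e-05), and 2 lower. Of 10 proteases 2 were higher, Mmp2 (3.33, adjusted p = 2.557e-13) and Adamts9 (4.06, adjusted p = 1.309e-06), and 1 was lower.

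Set against Cdh5-high wells, the Col1a1-high wells had more of the fibrillar genes and the Cdh5-high wells more Timp3, with less stable calls for Nid1 and Col4a1. Of 33 tested genes, 14 were higher and 5 lower in Col1a1-high wells, against 11.1% of all 9378 genes tested, 5.85% higher and 5.24% lower. The median log2 difference was 0.51, against -0.04 over all genes. Dcn, Lum, Vcan, Col6a3 and Col9a1, all among the higher genes, were not tested in the fit without Col1a1-high sums, so the count and the median depend on the filter. DESeq2 called 12 (11 higher and 1 lower), and not Nid1 (adjusted p = 0.1844), Nid2 (0.1134), Col4a1 (0.1294), Lama1 (0.08144), Col6a3 (0.6582), Col13a1 (0.1032) or Col15a1 (0.3045). Col1a2 (5.87, SE 0.52, adjusted p = 1.856e-06), Col3a1 (5.64, SE 0.56, adjusted p = 6.541e-06), Lum (6.36, SE 0.56, adjusted p = 2.219e-09) and Col5a2 (2.39, SE 0.39, adjusted p = 2.926e-06) were higher. Dcn and Col6a3 had no transcript in Cdh5-high wells and were at least 23.96-fold and 7.88-fold higher. Vcan, Col5a1 and Col9a1 had 1, 3 and 1 transcripts there, with Cdh5 to Col1a1 ratios of 0.0083 (95% counting interval 0.0002 to 0.0472), 0.0159 (0.0033 to 0.0473) and 0.0182 (0.0005 to 0.1057). Col11a1 (4.14) and Col27a1 (3.82) were higher too.

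On the Cdh5 side, Timp3 was at 33.4, 0, 0, 47.9, 103 and 10.7 CPM in the Col1a1-high sums and at a mean of 142 CPM in the 4 Cdh5-high sums, all from EMP libraries (log2 difference -1.89, SE 0.43, adjusted p = 0.005092). The Timp3 call was lost without EMP library 3 (adjusted p = 0.06106), in EMP libraries only (0.05118) and without deep wells (0.3226). Nid1 (-0.96, SE 0.26, adjusted p = 0.007125) lost its call without EMP library 1 (adjusted p = 0.06537). Col4a1 (-0.66, SE 0.22, adjusted p = 0.04246) lost its call in 12 of 22 alternatives, among them RLE size factors (adjusted p = 0.09321) and fits without A1/A2 library 2 or EMP library 2, 3 or 4 (adjusted p up to 0.142). Col13a1 and Col15a1 had 1 transcript each in Col1a1-high wells, with Col1a1 to Cdh5 ratios of 0.0430 (0.0010 to 0.2659) and 0.0591 (0.0014 to 0.3805), and Col15a1 lost its call without EMP library 1 or 3 (adjusted p up to 0.1401). Lamb1 (1.28, SE 0.29, adjusted p = 0.002151), Lama1 (1.30, SE 0.41, adjusted p = 0.02835) and Nid2 (1.56, SE 0.49, adjusted p = 0.0262) were higher in the Col1a1-high wells. Lama1 lost its call without A1/A2 library 4 or EMP library 2, 3 or 4 (adjusted p up to 0.1346), Nid2 without EMP library 1, 2 or 4 (up to 0.5539), and the Col6a3 call without EMP library 3 (0.05105). Fn1 (0.40, SE 0.22, adjusted p = 0.3045), Sparc (0.51, SE 0.23, adjusted p = 0.1868) and Col18a1 (-0.82, SE 0.32, adjusted p = 0.108) did not pass. All 12 endothelial markers were higher in Cdh5-high wells, and 6 of 10 tested mesenchyme markers lower. Collagen processing genes were higher in Col1a1-high wells for 11 of 23 and lower for none, receptors for 7 and 6 of 17, and proteases for 1 and 1 of 10.

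Within Apoa1-high wells alone, the 2 sorts were compared again to see how the genes of the set compare between Apoa1-high wells of either sort. None of 20 tested genes passed in edgeR's quasi-likelihood test, against 3.79% of all 9622 genes tested (3.03% higher and 0.759% lower in A1/A2), and none passed in DESeq2. At an unadjusted p under 0.05 there were 3: Hspg2, Nid2 and Timp3. Timp3 read 53.0, 40.5, 30.6 and 65.7 CPM in A1/A2 and 87.7, 64.9, 60.8 and 63.9 CPM in EMP libraries, overlapping through 1 A1/A2 library, with a log2 difference of -0.58 (SE 0.19, adjusted p = 0.1042). Hspg2 read 16.1, 8.60, 8.62 and 10.8 against 5.58, 6.76, 4.01 and 5.54 CPM, with no overlap and a log2 difference of 0.87 (SE 0.32, adjusted p = 0.1456). Nid2 had a log2 difference of 0.47 (SE 0.21, adjusted p = 0.2338), which turned to -0.83 without deep wells.

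Of the genes called over all wells, Fn1, Sparc and Col18a1 overlapped between the sorts here, and Lama4 and Timp2 were counted too rarely to be tested. Fn1 was at 323 to 375 CPM in A1/A2 and at 311 to 391 CPM in EMP libraries, Sparc at 567 to 887 and 671 to 799 CPM, and Col18a1 at 14.7 to 30.4 and 22.3 to 35.1 CPM. Col4a1 (log2 difference 0.18, SE 0.15, adjusted p = 0.5934) overlapped throughout. Lama1 read 224 CPM in A1/A2 library 1, where well 116 lies, and 35.4 to 54.7 CPM in the other 3, against 29.9 to 69.7 CPM in EMP libraries (0.78, SE 0.65, adjusted p = 0.624). Of 10 tested macrophage markers 8 were higher in these A1/A2 wells, and 4 of 8 tested endothelial markers lower. Among the companion genes, Itga2b was lower (-1.66, adjusted p = 0.04351) and the collagen cross-linker Loxl2 higher (68.5 ± 8.13 against 44.4 ± 6.77 CPM, log2 difference 0.60, adjusted p = 0.01468), and none of 7 proteases passed. Whether the difference between the sorts is itself smaller in this class than over all wells was not tested.

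**Figure D5:**
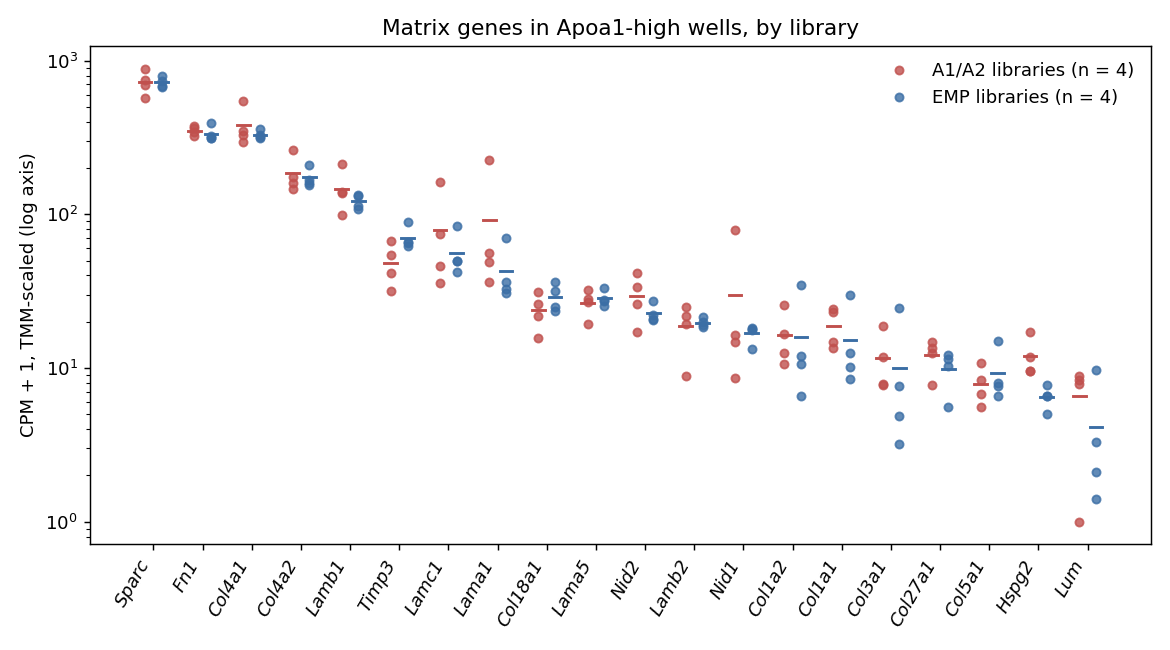
Level of the 20 tested genes in the Apoa1-high wells of each library (CPM, log axis), A1/A2 and EMP in separate colours and one point per library. The groups overlap for every gene but Hspg2 (8.60 to 16.1 against 4.01 to 6.76 CPM), and Lama1 and Nid1 of A1/A2 library 1 (224 and 78.3 CPM) stand apart.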

How the data were processed

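The labels give mCEL-Seq2 as the method. The deposited values are, as the authors left them, estimated counts of transcripts by gene and well, corrected for collisions of molecular identifiers. BWA 0.6.2-r126 and Seurat are named, per the submitters' processing notes. For the genome build and annotation the answer is: not given in the sources used here. The members, class genes and all lists were chosen with earlier results of these data known. Sums of estimated counts by library, or by library and class (at least 3 wells), were rounded and fitted in edgeR 4.0.16 under R 4.3.3 (quasi-likelihood, robust, TMM, filterByExpr), and p-values were adjusted by Benjamini-Hochberg at 5%. CPM are per TMM-scaled total, and SE is the log2 difference over the square root of F. DESeq2 1.42.0 was an alternative. The fits were tested on simulated data. Of 2-fold changes, 28% were recovered between A1/A2 and EMP libraries and 7% in each comparison with Cdh5-high wells. Of 4-fold changes, 99% were recovered between A1/A2 and EMP libraries, and 68% and 64% for Cdh5-high against Apoa1-high and Col1a1-high against Cdh5-high wells. False calls made up 6.6% of the calls between A1/A2 and EMP libraries, above the 5% set, and less in the other comparisons.

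Genes were named by a list of 25, plus up to 5 higher and 5 lower per comparison with at least 20 CPM, and up to 4 per companion list. Col13a1, Col15a1, Col26a1 and Col27a1, Col5a2 against Cdh5-high wells, and Col5a1 in Csf1r-high wells were added after their values were seen. The rule set for classes left mixed wells out, and the Col1a1 comparisons use the alternative that assigns them. Counting intervals cover counting error only.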

Additional observations from a re-analysis of the deposited data

Results flagged for a closer look

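Over 80 sets of 4 libraries, 12 held a library whose gap to the nearest of the others was large for the range of the group (above Dixon's critical value at the 95% level), where chance gives about 1 in 20. Over all kept wells, A1/A2 library 2 stood above the other 3 for Col4a1 (411.63 against 160 to 164 CPM), Col4a2 (183.498 against 78.5 to 86.6 CPM), Lamb1 (151.537 against 52.9 to 69.2 CPM) and Sparc (710.297 against 332 to 377 CPM). Its well 19 held 48.2% of the library's Col4a1, 46.5% of its Lamb1 and 35.1% of its Sparc transcripts. EMP library 2 stood above the other EMP libraries for Col4a2 (213.74 against 148 to 150 CPM), Lama5 (32.08 against 18.8 to 19.4 CPM) and Lamb2 (17.2 against 15.5 to 15.7 CPM).

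Within Apoa1-high wells, A1/A2 library 1 was high for Lama1 (223.528 against 35.4 to 54.7 CPM) and Nid1 (78.35 against 7.66 to 15.4 CPM), and its well 116 held 65.5% of the library's Lama1. EMP library 2 was high for Lama1 (69.657 against 29.9 to 35.3 CPM), EMP library 3 low for Nid1 (12.328 against 16.6 to 17.1 CPM), and EMP library 1 high for Timp3 (87.653 against 60.8 to 64.9 CPM).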

How the results depend on the processing

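Counts of called genes of the set changed by more than 1.5 times as follows. Between A1/A2 and EMP libraries 8 became 13 with no filter on low counts, 4 to 13 with a library left out (13 without A1/A2 library 2, 4 without EMP library 3), 2 after thinning and 3 without deep wells. For Cdh5-high wells 14 became 1 after thinning and 6 without deep wells. For Csf1r-high wells 18 became 7 in EMP libraries only, 4 after thinning and 7 without deep wells. For Col1a1-high wells 20 became 3 after thinning and 13 without deep wells, and against Cdh5-high wells 19 became 12 with DESeq2, 2 after thinning and 8 without deep wells. Thinning and leaving out deep wells also leave fewer genes to test. In Apoa1-high wells 0 became 1 with no filter, with wells of at least 500 transcripts or at 20% of the percentile, 2 with mixed wells assigned, and 0 to 1 with a library left out. Without wells far below their same-number well, an alternative chosen after seeing the data, the counts were 6, 14, 19, 21, 20 and 0 in the order of the report.

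Same-numbered libraries were not taken as pairs: the labels do not say what the shared number marks, and 1 of the 4 correlations (0.222, 0.391, -0.025 and 0.22) was not above 0.1, with A1/A2 library 3 not correlating best with its own number. With a replicate block, 11 genes were called over all wells, the 8 of the report plus Col4a2 (log2 difference -0.69, adjusted p = 0.0001848), Col14a1 (-3.01, adjusted p = 0.0006569) and Fbn1 (-1.76, adjusted p = 0.007846), and 1 in Apoa1-high wells.

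Among the called genes of the set and those given with values, signs turned under the settings named here (log2 differences). Over all wells, values with 1 library left out ran from -0.396 to 0.98 for Lama1 and from -0.3279 to 0.4808 for Lamc1, both lowest without A1/A2 library 2. They were -0.2779 and -0.2414 without the well of the highest sum (also chosen after seeing the data), and Lamc1 was -0.1714 without deep wells. In Cdh5-high wells, with 1 library left out, Sparc ran from -0.0862 (without EMP library 4) to 0.243, Lamc1 from -0.5718 (without EMP library 1) to 0.6192, and Timp3 from -0.1929 (without EMP library 3) to 1.0903. Sparc was -0.0172 with no filter, -0.0478 without wells far below their same-number well and -0.2179 at 5% of the percentile, where Col4a1 was -0.007 and Col4a2 -0.1139. Lamc1 was -0.0269 without the library term. Fn1 was 0.1531 after thinning, 0.2557 without deep wells, 0.0715 at 20% of the percentile and 0.3423 with mixed wells assigned. In Csf1r-high wells, Col1a2 was 0.7394 in EMP libraries only. In Col1a1-high against Apoa1-high wells, Col4a2 was 0.0344 with RLE factors, 0.0025 without the library term, 0.1151 in EMP libraries only, 0.0352 with wells of at least 2000 transcripts and 0.2146 without wells far below their same-number well. Col4a1 was 0.0551 in EMP libraries only, 0.3787 after thinning and 0.0159 without those wells, and Lama1 -0.2595 in A1/A2 libraries only. Against Cdh5-high wells Fn1 was -0.0069 after thinning. In Apoa1-high wells, Col4a1 ran from -0.0185 (without A1/A2 library 1) to 0.2711 with 1 library left out, and was -0.2976 without deep wells, -0.1013 at 20% of the percentile and -0.1916 with mixed wells assigned. Nid2 was -0.8308 without deep wells. The cause of these changes was not tested. Of these differences, the report calls that of Col1a2.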
